A study of Homo sapiens with 12 samples.

Results

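The genes described here are 9 components of the actin, myosin, tubulin and adhesion machinery, TPM2, CNN2, MYL12A, MYL12B, MYO10, TLN1, TRIO, DAB2 and TUBB6, out of 61498 entries of the count tables. They were taken by symbol as a fixed list, which was chosen with earlier results of these data known, and all 9 were found. RNA was sequenced from HaCaT, an established line of human keratinocytes, as 4 derivatives that each carry a short hairpin RNA: against MLL1 (encoded by KMT2A, which methylates histone H3 at lysine 4), against UTX (encoded by KDM6A, which demethylates histone H3 at lysine 27), against NRF2 (encoded by NFE2L2, a transcription factor of antioxidant genes), or a control hairpin. They are called shMLL1, shUTX, shNRF2 and shControl. Each derivative was exposed for 24 h to 100 µM hydrogen peroxide (H2O2), exposed for 24 h to 25 µg/mL cerium oxide nanoparticles (CeO2), or left untreated. That makes 12 libraries, 1 for each combination of derivative and treatment, with no replicate of any combination. Each derivative is a single line, so the hairpin and any other difference between the lines cannot be told apart. The labels do not say whether the libraries come from separate cultures, and p-values measure only the spread among these libraries.

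Keratinocytes move and hold together through actin filaments that are bundled, pulled on and anchored. Tropomyosins and calponins bind along the filaments, non-muscle myosin II slides them when its regulatory light chains are phosphorylated, and talin ties them to integrins at focal adhesions. Microtubules, built from alpha and beta tubulins, run beside this network. In keratinocytes these parts are best known for their work in wound closure.

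Total counts ran from 5388335 to 7670446 per library. Levels are given as CPM, a gene's count divided by the library total and multiplied by 1000000. In these tables the names of many genes that every cell uses hold few or no counts: of a panel of 626 such genes, 141 reached 30 CPM and 195 had no count in any library. The names are therefore read only on 5 stretches of chromosomes 5, 9, 11, 18 and 19 (GRCh38) on which all 32 panel genes reached 30 CPM, against 109 of 594 elsewhere. Since the panel itself was used to find the stretches, the first share is no check of them. All 9 genes lie on these stretches because they were chosen from them, so their place there is no result. The stretch of chromosome 18, which holds MYL12A, MYL12B and TUBB6, rests on 3 panel genes with a median of 72.1 CPM and was added after the values were seen. Its start was then moved back to the first annotated gene of the chromosome (chr18:11103). No panel gene covers names before the first of the 3, so names there are less certain. Of the 6 panel genes nearest to MYL12A, MYL12B, TUBB6 or DAB2, 3 reached 30 CPM, against 6 for each of the other members. The targeted entries lie outside the stretches. KMT2A held 99.7, 35.6 and 32.0 CPM in the H2O2, CeO2 and untreated shMLL1 libraries, against 482, 494 and 464 CPM in the shControl libraries. KDM6A had 0 or 1 count in the shUTX libraries and 5 or 6 in the shControl libraries. NFE2L2 had 0 counts in the 3 shNRF2 libraries, and 12, 16 and 1 counts in the H2O2, CeO2 and untreated shControl libraries. It was also low without its own hairpin, at 1 to 3 counts per shMLL1 library and 1 to 4 per shUTX library. Low NFE2L2 counts were therefore not particular to shNRF2. KMT2A ranged from 291 to 339 CPM across the shUTX libraries, below shControl, and from 455 to 573 CPM across shNRF2. KDM6A stayed at 4 or 5 counts in every library of shMLL1 and shNRF2. None of the 18 keratinocyte markers looked up lies on a stretch, and 4 of them (KRT5, KRT6A, ITGB4 and DSG3) had no count, so the cell type could not be checked by name. The same holds for 52 other cytoskeletal genes, none of them on a stretch: 26 had a mean under 1 CPM, and 11, among them ACTG1, PFN1, ZYX, TPM4 and TUBB, had no count in any library. ACTB and the other tropomyosin, alpha-actinin, vinculin and myosin heavy chain genes belong to that list and are not read here.

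MYL12A and MYL12B, the genes of the regulatory light chains of non-muscle myosin II, are neighbours on the plus strand of chromosome 18, at chr18:3247481-3256236 and chr18:3261479-3278431. Their coding sequences are shown because they limit how far reads can be assigned to either gene. In the transcripts with the longest coding sequence in GENCODE 29 (534 and 519 bases with the stop codon), 494 of 516 aligned positions were identical, 95.7%. The 90-base window with the fewest differences starts at coding base 46 of MYL12A and 31 of MYL12B and holds 1 difference, printed as a capital.
MYL12A: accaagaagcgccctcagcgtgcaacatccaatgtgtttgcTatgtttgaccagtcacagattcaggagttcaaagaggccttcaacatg
MYL12B: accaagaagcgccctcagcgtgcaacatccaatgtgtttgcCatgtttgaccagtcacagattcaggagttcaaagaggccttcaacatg
The 90-base window with the most differences starts at coding base 187 of MYL12A and 172 of MYL12B and holds 11, again in capitals.
MYL12A: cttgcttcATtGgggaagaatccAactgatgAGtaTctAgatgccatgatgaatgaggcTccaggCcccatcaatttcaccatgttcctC
MYL12B: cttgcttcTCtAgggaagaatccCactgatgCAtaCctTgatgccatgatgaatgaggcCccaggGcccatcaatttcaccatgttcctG
Of the 50-base windows of these transcripts, 15.9% in MYL12A and 9.42% in MYL12B occur also in a transcript of another gene, mostly of the partner, of pseudogenes or of the antisense gene AP005329.1, which overlaps both. Reads of these windows cannot be given to 1 gene by sequence, and the sources used here do not give whether counting used the strand, so both genes' counts are uncertain to that extent. In CNN2, 13.7% of windows are shared, nearly all with an uncharacterised overlapping transcript on the opposite strand. For TPM2, TLN1, TUBB6, MYO10, TRIO and DAB2 the share was at most 0.993%, although TLN1 overlaps CREB3, TUBB6 overlaps AFG3L2 and DAB2 overlaps C9 on the genome.

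Many genes of actin filaments and focal adhesions are known targets of serum response factor, which binds the CArG box, so the 250 bases before each start site were searched for this motif on both strands. All 9 genes matched an entry of the RefSeq promoters (GRCh38.p14). CNN2 was the 1 gene with a match, against 1.44% of 27303 genes with such a window. Its promoter is shown with the match in capitals, 89 bases before the start site (chr19:1026358-1026607, plus strand).
CNN2: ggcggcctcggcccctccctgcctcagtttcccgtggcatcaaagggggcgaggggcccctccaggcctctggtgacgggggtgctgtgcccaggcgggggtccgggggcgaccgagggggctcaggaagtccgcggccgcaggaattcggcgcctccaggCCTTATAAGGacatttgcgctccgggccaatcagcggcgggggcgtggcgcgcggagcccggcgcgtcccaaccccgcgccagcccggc
The promoter of TPM2, the gene that differed most often between derivatives and controls below, is shown for comparison and has no match at either of its 2 listed start sites (chr9:35690057-35690306, minus strand).
TPM2: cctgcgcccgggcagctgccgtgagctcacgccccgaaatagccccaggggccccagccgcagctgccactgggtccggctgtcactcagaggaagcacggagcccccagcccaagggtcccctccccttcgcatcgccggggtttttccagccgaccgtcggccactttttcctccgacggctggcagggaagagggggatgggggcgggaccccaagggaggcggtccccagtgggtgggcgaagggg
A match is a description of these letters and not a bound site.

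The genes covered a wide range of levels. Per kilobase of transcript, CNN2 stood at a median of 707 CPM per kb over the 12 libraries, followed by MYL12B (332), MYL12A (169), TLN1 (108), TUBB6 (69.6), MYO10 (46.7), TRIO (46.0), TPM2 (13.8) and DAB2 (0.420). The ranges of TLN1 (81.9 to 131 CPM per kb) and TUBB6 (50.2 to 97.2) overlapped, as did those of TUBB6 and MYO10 (30.3 to 59.2) and of MYO10 and TRIO (26.6 to 77.1). The other neighbours in this order did not overlap. Within each gene the highest library exceeded the lowest by 1.18-fold for CNN2 and by 2.90-fold for TRIO, with the other genes between them except DAB2, whose lowest library was at 0.

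**Figure D1:**
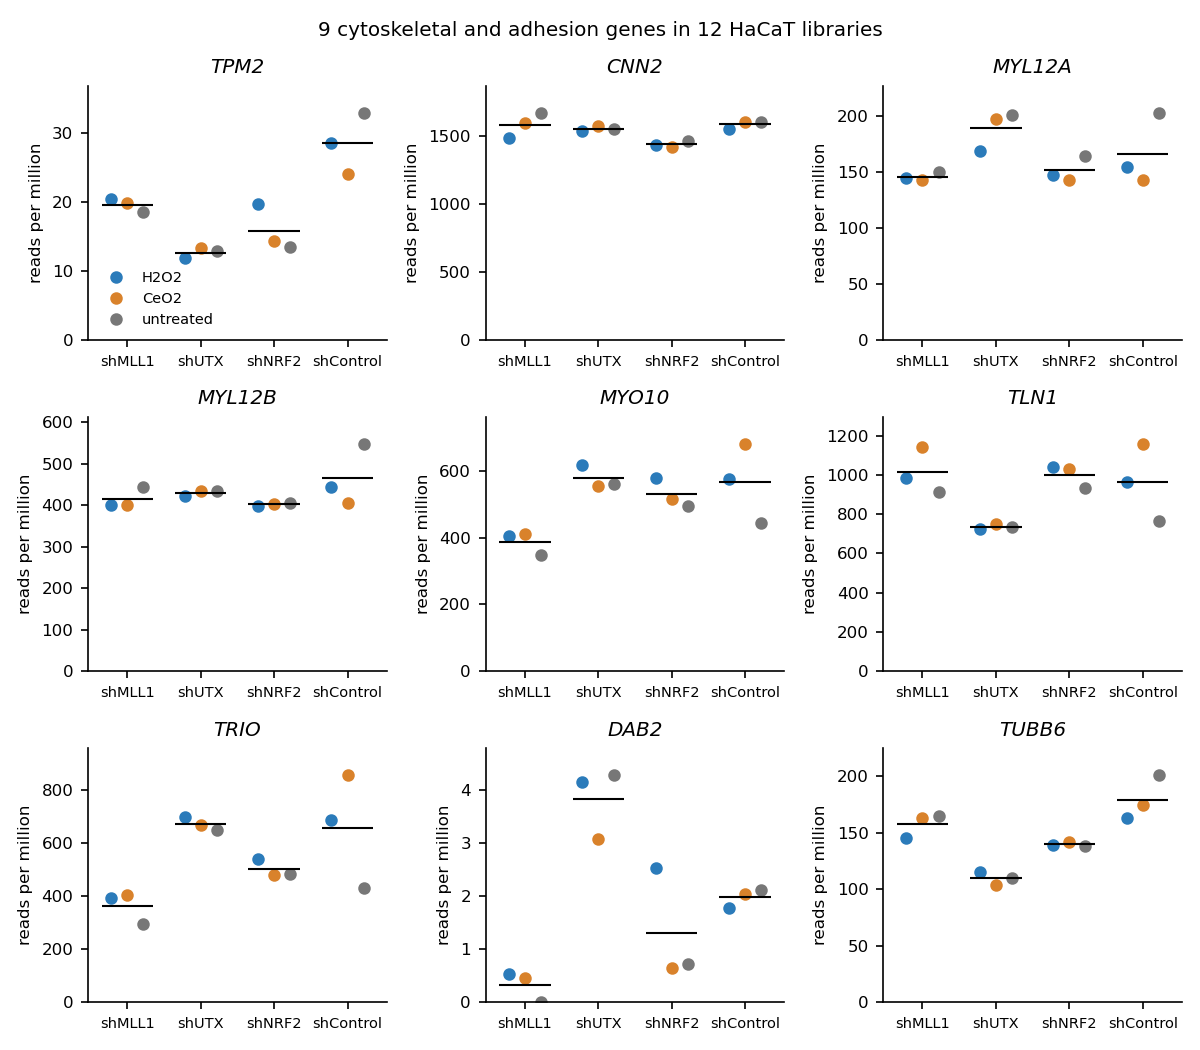
CPM (y axis, from 0) of each of the 9 genes in the 4 derivatives (x axis). Points are single libraries coloured by treatment and bars are the mean of the 3 libraries of a derivative. TPM2 is highest in shControl, TUBB6 is lowest in shUTX, TRIO and MYO10 are lowest in shMLL1, and CNN2 is nearly level.

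Between derivatives, TPM2 was called lower than in shControl in all 3 knockdown lines, while CNN2 did not pass the test in any. The tests below fitted derivative and treatment together across the 12 libraries with edgeR's quasi-likelihood test, on 10800 entries, with Benjamini-Hochberg adjusted p-values and a threshold of 0.05. TPM2 encodes beta-tropomyosin, a rod that lies along actin filaments and steadies them (ENSG00000198467, chr9:35681992-35690121, minus strand). It had 20.5, 19.9 and 18.7 CPM in the H2O2, CeO2 and untreated shMLL1 libraries. In the same order it had 11.9, 13.3 and 13.0 CPM in shUTX and 19.7, 14.5 and 13.5 CPM in shNRF2. The shControl libraries held 28.6, 24.2 and 32.9 CPM. All 9 knockdown libraries were below all 3 controls, and the shUTX libraries were the lowest 3. TPM2 fell by 1.14 ± 0.18 (log2, SE) in shUTX (adjusted p = 0.000307), by 0.90 ± 0.17 in shNRF2 (adjusted p = 0.00631) and by 0.57 ± 0.17 in shMLL1 (adjusted p = 0.0382). The shUTX call held in all 23 other settings. The shNRF2 call was lost when only the shNRF2 and shControl libraries were fitted (adjusted p = 0.0606). The shMLL1 call was lost in 8 settings: without the untreated shControl library the change was -0.37 (adjusted p = 0.103), and without the H2O2 shControl library, any 1 of the shMLL1 libraries or the CeO2 shNRF2 library the adjusted p ran from 0.0551 to 0.176.

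CNN2 encodes calponin 2, an actin-binding protein of non-muscle cells (chr19:1026581-1039068, plus strand), and had the highest level of the 9. It had 1484, 1597 and 1665 CPM in the H2O2, CeO2 and untreated shMLL1 libraries, 1536, 1569 and 1551 CPM in shUTX and 1431, 1415 and 1465 CPM in shNRF2, against 1553, 1604 and 1602 CPM in shControl. The shNRF2 libraries were the lowest 3 and did not overlap the shControl libraries. Its log2 change against shControl was -0.04 ± 0.07 in shMLL1, -0.01 ± 0.07 in shUTX and -0.19 ± 0.07 in shNRF2, with adjusted p of 0.813, 0.965 and 0.170.

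MYL12A had 145, 142 and 149.6 CPM in the H2O2, CeO2 and untreated shMLL1 libraries, 169, 197 and 201 CPM in shUTX and 147, 143 and 164 CPM in shNRF2, against 154, 142 and 202 CPM in shControl. The 3 shUTX libraries were above every shMLL1 and shNRF2 library, while the shControl libraries spanned the whole range. MYL12A was higher in shUTX than in shMLL1 by 0.43 ± 0.11 (adjusted p = 0.0133) and lower in shNRF2 than in shUTX by 0.39 ± 0.11 (log2 -0.39, adjusted p = 0.0186). Against shControl, the change in shUTX was 0.21 ± 0.11 (adjusted p = 0.169) and became 0.37 without the untreated shControl library (adjusted p = 0.00167). The shUTX against shMLL1 call was lost without the untreated shMLL1 library (adjusted p = 0.101) or without the CeO2 shUTX library (adjusted p = 0.106). The shNRF2 against shUTX call was lost without the CeO2 shUTX, untreated shNRF2 or CeO2 shNRF2 library (adjusted p = 0.141, 0.0735 and 0.0700). MYL12B, its paralog, had 401, 400.4 and 443 CPM in the H2O2, CeO2 and untreated shMLL1 libraries, 423, 435 and 433 CPM in shUTX and 398, 403 and 406 CPM in shNRF2, against 443, 404 and 546 CPM in shControl. Apart from the untreated shControl library these values lay close together. No contrast between derivatives passed the test for MYL12B, with log2 changes against shControl of -0.19, -0.08 and -0.25 in shMLL1, shUTX and shNRF2. Without the CeO2 shControl library the change in shNRF2 was -0.37 (adjusted p = 0.0360).

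TLN1 encodes talin-1, which activates integrins and couples them to actin (chr9:35696948-35732395, minus strand). It had 981, 1142 and 913 CPM in the H2O2, CeO2 and untreated shMLL1 libraries. In shUTX it had 722, 749.9 and 733 CPM, and in shNRF2 1041, 1028 and 935 CPM. The shControl libraries held 965, 1155 and 764 CPM. The shUTX libraries were the lowest 3 of the 12 and varied least. TLN1 fell in shUTX by 0.34 ± 0.08 against shControl (adjusted p = 0.00709) and by 0.40 ± 0.08 against shMLL1 (adjusted p = 0.00362), and was higher in shNRF2 than in shUTX by 0.38 ± 0.08 (adjusted p = 0.00425). The first of these was lost when only the shUTX and shControl libraries were fitted (adjusted p = 0.100), and the other 2 held in all settings.

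TUBB6 encodes a class V beta tubulin, a subunit of microtubules (chr18:12307669-12344320, plus strand). It had 145, 163 and 165 CPM in the H2O2, CeO2 and untreated shMLL1 libraries and 116, 104 and 110.2 CPM in shUTX. In shNRF2 it had 139.3, 142 and 138.5 CPM, and in shControl 163, 174 and 201 CPM. The shUTX libraries were below every other library and the shNRF2 libraries lay between them and shControl. TUBB6 fell by 0.68 ± 0.10 in shUTX, 1.60-fold (adjusted p = 0.000235), and this held in all 23 other settings. It fell by 0.40 ± 0.10 in shNRF2 (adjusted p = 0.0347), and this was lost in 8 settings. Among them were those without any 1 of the shNRF2 libraries (adjusted p from 0.0804 to 0.199) or any 1 of the shMLL1 libraries (0.0558 to 0.0631). The shMLL1 libraries are not compared here and enter only through the parts of the fit that all libraries share. Its change in shMLL1 was -0.21 ± 0.10 (adjusted p = 0.196).

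TRIO, MYO10 and DAB2 were called lower in shMLL1 than in shControl, DAB2 with the limit on its counts given below. All 3 lie on the stretch of chromosome 5, where 64.2% of the coding genes tested fell in the same contrast. TRIO encodes a large guanine nucleotide exchange factor that acts on the actin cytoskeleton (chr5:14143702-14532128, plus strand). It had 394, 404 and 295 CPM in the H2O2, CeO2 and untreated shMLL1 libraries. It had 699, 669.9 and 648 CPM in shUTX and 539, 480.3 and 483 CPM in shNRF2. The shControl libraries held 686, 856 and 430.4 CPM. Every shMLL1 library was below every other library, and the shControl libraries had the widest spread. TRIO fell by 0.85 ± 0.12 in shMLL1 against shControl, 1.81-fold (adjusted p = 0.000268), and the call held in all 23 other settings, with changes from -1.02 to -0.54. It was higher in shUTX than in shMLL1 by 0.96 ± 0.12 (adjusted p = 6.6e-05). In shNRF2 against shControl its change was -0.39 ± 0.12 (adjusted p = 0.0770), and without the untreated shControl library it was -0.56 (adjusted p = 0.000101).

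MYO10 encodes the myosin that travels to the tips of filopodia (chr5:16661914-16936276, minus strand). It had 405, 412 and 347 CPM in the H2O2, CeO2 and untreated shMLL1 libraries, 616, 554 and 559.5 CPM in shUTX and 578, 515 and 494 CPM in shNRF2, against 573, 679 and 444 CPM in shControl. As for TRIO, every shMLL1 library was below every other library. MYO10 fell by 0.56 ± 0.09 in shMLL1 against shControl, 1.47-fold (adjusted p = 0.000662). It was higher by 0.63 ± 0.09 in shUTX than in shMLL1 (adjusted p = 0.000165) and by 0.44 ± 0.09 in shNRF2 than in shMLL1 (adjusted p = 0.00468). With a length trend removed, as described below, the call against shControl (-0.25, adjusted p = 0.0981) and that of shNRF2 against shMLL1 (0.03, adjusted p = 0.860) were lost. TRIO was likewise higher in shNRF2 than in shMLL1, by 0.46 ± 0.12 (adjusted p = 0.0216), a call lost without any 1 of the shMLL1 libraries (adjusted p from 0.0845 to 0.122), the untreated shNRF2 library (0.117) or the H2O2 shNRF2 library (0.0896).

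DAB2 encodes an endocytic adaptor that brings integrins and receptors of the LDL receptor family to clathrin (chr5:39371675-39462300, minus strand), and was the only one of the 9 near the limit of detection. It had 3, 3 and 0 counts in the H2O2, CeO2 and untreated shMLL1 libraries. It had 24, 20 and 23 counts in shUTX (4.13, 3.07 and 4.27 CPM) and 15, 5 and 5 counts in shNRF2 (2.53, 0.652 and 0.720 CPM). The shControl libraries held 13, 14 and 15 counts (1.77, 2.04 and 2.12 CPM). No shMLL1 library was above 3 counts, the number up to which a count of 0 leaves a level undetected, and no shUTX library was below 20. DAB2 was lower in shMLL1 than in shControl (fitted log2 -2.62 ± 0.66, adjusted p = 0.0163), and this was lost without the untreated (adjusted p = 0.0835) or the H2O2 shMLL1 library (0.0595). It was higher in shUTX than in shMLL1 (3.58 ± 0.60, adjusted p = 0.000697) and lower in shNRF2 than in shUTX (-1.69 ± 0.46, adjusted p = 0.0151). The last was lost without the untreated shUTX, untreated shNRF2 or CeO2 shNRF2 library (adjusted p = 0.0672, 0.0740 and 0.0896). Fitted changes at such counts depend on the prior count of the fit and are not bounds. No shMLL1 library reached 1 CPM (0.529, 0.462 and 0 CPM), so DAB2 entered the test through the lines where it is higher. Its calls against shMLL1 are therefore no support for a difference. The same limit applies to shNRF2 against shUTX, since the H2O2 library alone of shNRF2 reached 1 CPM.

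**Figure D2:**
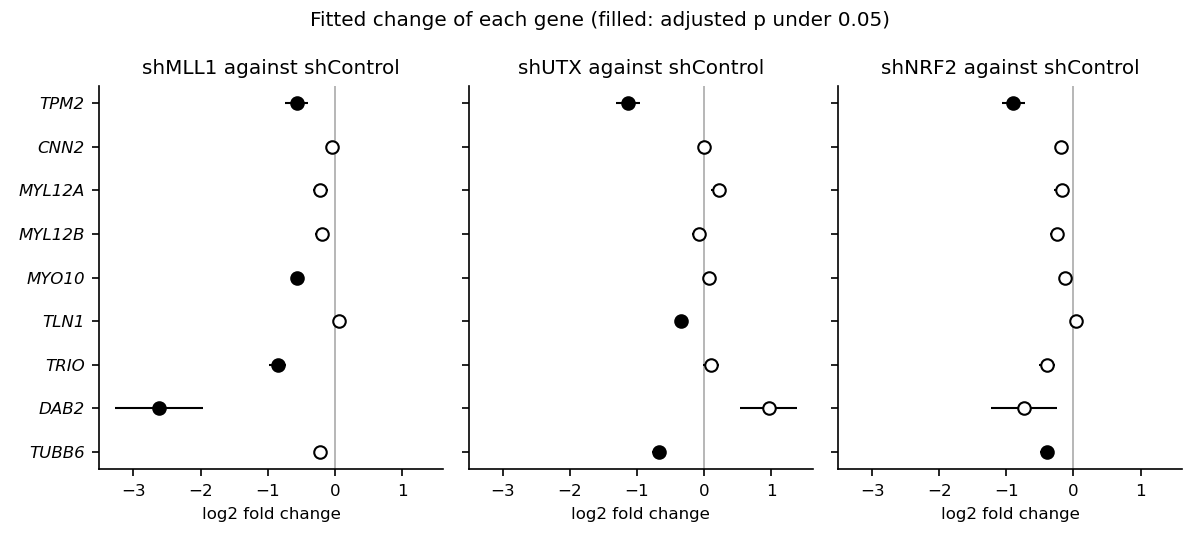
Fitted log2 fold change (x axis) with its standard error, worked back from the test statistic, for each gene (y axis) in shMLL1, shUTX and shNRF2, each against shControl. Filled points passed the adjusted threshold. TPM2 is filled in all 3 panels, TUBB6 in shUTX and shNRF2, TLN1 in shUTX, and TRIO, MYO10 and DAB2 in shMLL1.

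Counted over the 9 genes, 4 fell and none rose in shMLL1 against shControl, where 12.2% of all 10800 entries, and 25.7% of the 483 tested on the stretches, passed the test in either direction, and 6.84% of all entries fell. In shUTX 3 fell and none rose, beside 26.3% of all entries and 38.3% of those on the stretches called either way, and 13.7% of all entries lower. In shNRF2 2 fell and none rose, beside 5.33% and 9.52% called either way and 2.56% lower. The median log2 change of the 9 was -0.22, -0.01 and -0.25 in shMLL1, shUTX and shNRF2, that of all entries 0.01, 0.00 and 0.01, and that of the entries on the stretches -0.09, -0.06 and -0.08. On the stretches 19.5%, 23.6% and 5.59% of entries fell in these lines. These 3 contrasts share the shControl libraries. DAB2, which entered the test through lines other than shMLL1, is among the 4 that fell in shMLL1 and the 4 higher in shUTX than in shMLL1. Without the untreated or the H2O2 shMLL1 library the count in shMLL1 was 2, and without any 1 of the shMLL1 or shNRF2 libraries the count in shNRF2 was 1. Between knockdown lines, 4 genes were higher and 3 lower in shUTX than in shMLL1, beside 18% of all entries and 36.6% of those on the stretches called. There TPM2 and TUBB6 were lower (-0.57 and -0.46, adjusted p = 0.0445 and 0.00554), of which TPM2 lost its call in 11 of 23 settings, among them without any 1 of the 6 libraries compared. In shNRF2 against shMLL1 2 were higher, beside 11.3% of all entries and 27.1% of those on the stretches, or 1 without any 1 of the shMLL1 libraries or the untreated or H2O2 shNRF2 library. In shNRF2 against shUTX 1 was higher and 3 lower, beside 23.4% and 38.9%. The 3 lower genes were TRIO (-0.49, adjusted p = 0.00794), MYL12A and DAB2. TRIO lost this call without the untreated shUTX (adjusted p = 0.0502) or the CeO2 shNRF2 library (0.0650). The count in this contrast was 7 without the untreated shControl library, 2 without the untreated shUTX library and 1 without the CeO2 shNRF2 library.

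TRIO, MYO10 and DAB2 share a chromosome arm. They lie on the stretch of chromosome 5 (chr5:218241-44820428), and most of that stretch moved with them in shMLL1. Of its 95 coding genes tested, 61 (64.2%) were lower and 8 higher in shMLL1 than in shControl, with a median log2 change of -0.46. On the other 4 stretches the medians were between -0.04 and 0.06, and between 0 and 11.9% of genes were lower. Set against shMLL1, the chromosome 5 stretch had a median of 0.62 in shUTX, with 67.4% of its genes higher, and of 0.46 in shNRF2, with 63.2% higher. In shUTX and shNRF2 against shControl its medians were 0.10 and -0.02. The changes of TRIO (-0.85) and MYO10 (-0.56) in shMLL1 therefore stand in a region whose median gene was at -0.46, and the part of the region in them was not tested.

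**Figure D3:**
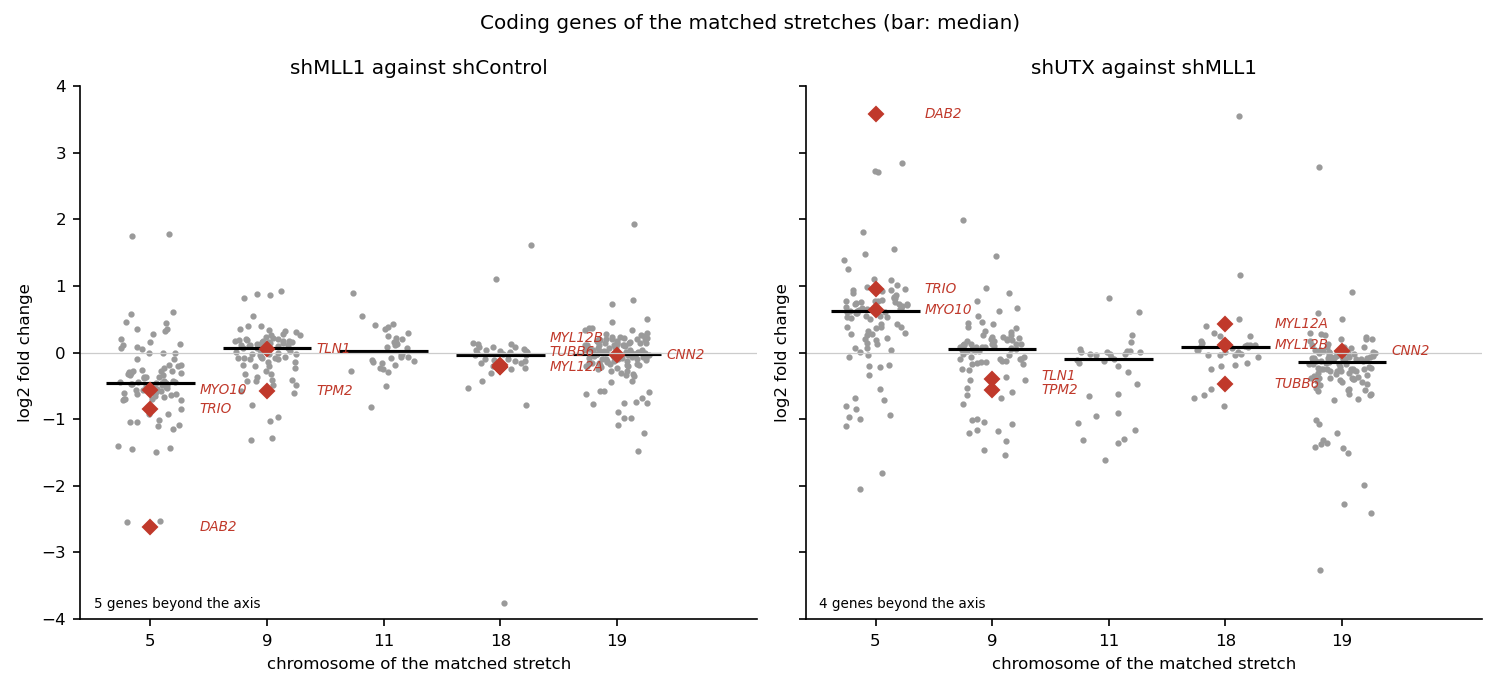
Log2 fold change (y axis) of the coding genes on each matched stretch (x axis, by chromosome), in shMLL1 against shControl and in shUTX against shMLL1. Grey points are genes, bars are medians and red diamonds are the 9 genes. The median of chromosome 5 is at -0.46 in the left panel and 0.62 in the right panel. The other medians lie between -0.04 and 0.06 in the left panel. In the right panel they lie between -0.15 (chromosome 19) and 0.08 (chromosome 18), with chromosome 11 at -0.10. In the left and right panels 5 and 4 genes lie beyond the axis.

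The genes most like each member were named by the 3 highest Pearson correlations of log2(CPM + 1) over the 12 libraries among 380 entries of the stretches with a mean of at least 5 CPM. The libraries share derivatives and depth, and the trend with transcript length described below was left in, so these are descriptions. MYO10 and TRIO were each other's nearest gene (r = 0.963), followed for MYO10 by ICE1 and DROSHA and for TRIO by CEP72 and ADAMTS12, all on chromosome 5. TUBB6 was most like GATD1-DT (0.959), TLE5 (0.942) and MOB3A (0.937), and TPM2 most like CSNK1G2 (0.918), MOB3A (0.888) and BASP1 (0.872). TPM2 and TUBB6 had r = 0.867 with each other, although they lie on different chromosomes. TLN1 was most like PIP5K1C (0.884), which encodes a phosphatidylinositol phosphate kinase whose product talin binds at focal adhesions, and UNC13B (0.884). MYL12A was most like BRIX1 (0.887) and had r = -0.886 with TLN1, while MYL12B was most like the pseudogene entry RPL6P27 (0.932). MYL12A has a short transcript (0.899 kb) and TLN1 a long one (8.82 kb), and the part of length in their r was not tested. CNN2 had the loosest neighbours, with UBE2R2 at 0.837. MYL12A and MYL12B had r = 0.676.

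Neither exposure moved any of the 9 genes past the threshold across the 4 derivatives. For H2O2 against untreated 0% of all entries were called by edgeR, while 2102 had an unadjusted p under 0.05, and DESeq2 called 124 entries. For CeO2 0.0185% were called, 1889 had an unadjusted p under 0.05, and DESeq2 called 44. DESeq2 called none of the 9 in either contrast. The 3 genes with the longest transcripts had positive log2 changes and the 2 light chains negative ones: TRIO 0.26 and 0.30 after H2O2 and CeO2, MYO10 0.17 and 0.16, TLN1 0.08 and 0.20, MYL12A -0.28 and -0.27, MYL12B -0.20 and -0.22. Adjusted p for these 10 values lay between 0.159 and 0.584. Without the filter on low counts, TRIO passed in both (adjusted p = 0.0199 and 0.00432).

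Within single lines, the largest differences between exposed and untreated libraries were in shControl for TRIO, MYO10, TLN1, MYL12A, MYL12B and TUBB6, and in another line for TPM2, CNN2 and DAB2. In shControl the ratio of exposed to untreated CPM of TRIO was 1.59 after H2O2 (95% interval 1.52 to 1.67) and 1.99 after CeO2 (1.90 to 2.08). The intervals are exact conditional binomial and cover counting error only. In shMLL1 the ratios were 1.33 and 1.37, in shUTX 1.08 and 1.03, and in shNRF2 1.116 and 0.994. MYO10 had 1.29 and 1.53 in shControl, and between 0.990 and 1.19 in the knockdown lines. TLN1 had 1.26 and 1.51 in shControl, 1.07 and 1.25 in shMLL1, and between 0.985 and 1.11 in shUTX and shNRF2. The myosin light chains went the other way in shControl, with 0.764 and 0.704 for MYL12A and 0.812 and 0.739 for MYL12B. In the knockdown lines MYL12B had between 0.904 and 1.00 and MYL12A between 0.842 and 0.982. For TUBB6 the ratios were 0.810 and 0.868 in shControl, and between 0.881 and 1.05 in the knockdown lines. For TPM2 they were 0.869 and 0.733 in shControl, but 1.46 in shNRF2 after H2O2 (1.10 to 1.93), and between 0.915 and 1.096 in the other 5 pairs. CNN2 had 0.891 in shMLL1 after H2O2 (0.866 to 0.916) and between 0.959 and 1.01 in the other pairs. DAB2, at 15 against 5 counts, had 3.51 in shNRF2 after H2O2 (1.21 to 12.3), against 0.835 and 0.961 in shControl.

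**Figure D4:**
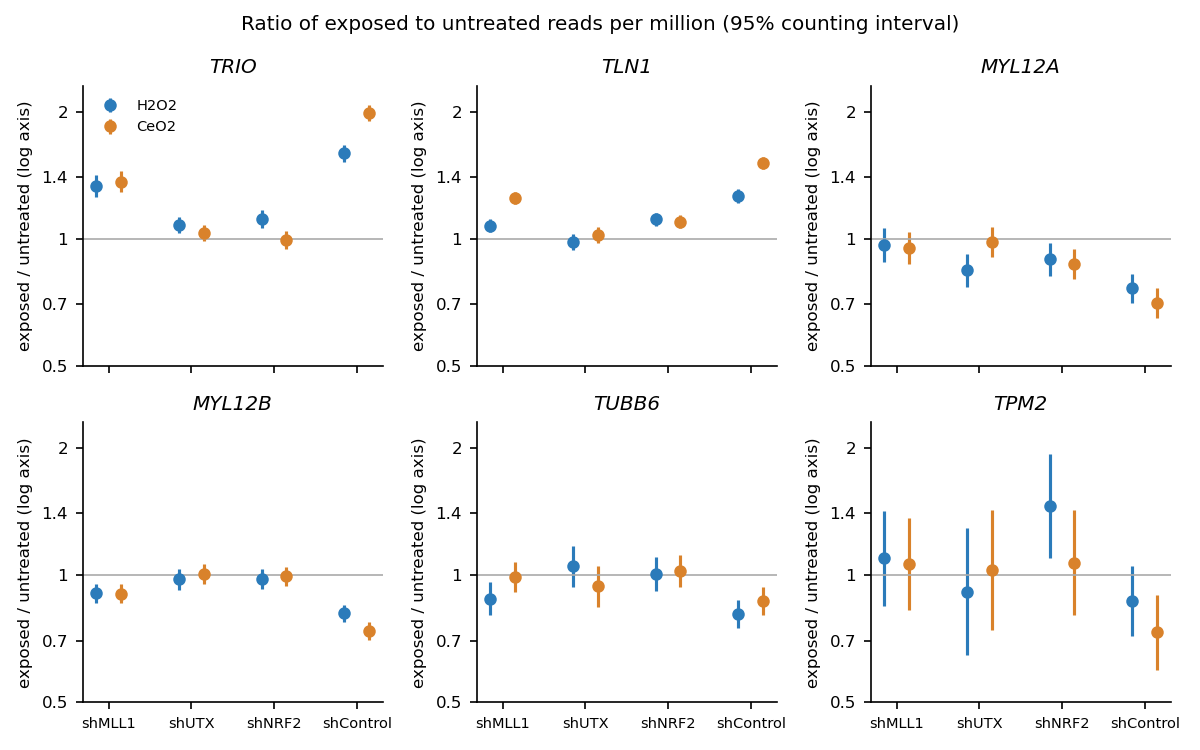
Ratio of exposed to untreated CPM (y axis, log scale) for 6 genes in each derivative (x axis), with 95% counting intervals. TRIO and TLN1 are above 1 and MYL12A, MYL12B and TUBB6 below 1 in shControl, and most ratios in shUTX and shNRF2 lie near 1.

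The test of a changed response, exposed minus untreated in a knockdown line less the same in shControl, has 3 residual degrees of freedom and is exploratory. It passed for none of the 9 in shMLL1 (0.648% of all entries and 1.45% of those on the stretches called, 1715 entries with an unadjusted p under 0.05, and none of the 9 by DESeq2), for 3 in shUTX (14.4% and 21.1% called) and for 4 in shNRF2 (16.6% and 25.3% called). In shUTX the response of TRIO was lower than in shControl by 0.60 ± 0.15 (log2 -0.60, adjusted p = 0.00917), and those of MYL12A and MYL12B were higher by 0.48 ± 0.15 and 0.52 ± 0.12 (adjusted p = 0.0374 and 0.00734). In shNRF2 the response of TRIO was lower (-0.59 ± 0.15, adjusted p = 0.00917), and those of MYL12B (0.52 ± 0.12, adjusted p = 0.00658), TUBB6 (0.45 ± 0.14, adjusted p = 0.0390) and TPM2 (0.81 ± 0.28, adjusted p = 0.0488) were higher. All 3 contrasts rest on the same untreated shControl library, which could not be left out of this fit. Without the H2O2 shControl library TRIO, MYL12A and MYL12B also passed in shMLL1 (adjusted p = 0.0119, 0.0107 and 0.0191), and the counts were 5 in shUTX and 6 in shNRF2. Without the CeO2 shUTX library 1 of the 3 passed in shUTX. In shNRF2 the count was 2 without any 1 of 4 libraries, H2O2 or CeO2 of shMLL1 or of shNRF2. The fit with a trend of transcript length removed is given next, and the cause of these responses was not tested.

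The untreated shControl library held fewer reads of long transcripts and more of short ones than the others. Over 330 coding genes of the stretches, log2 CPM relative to the mean of the 12 libraries changed by -0.17 for each doubling of transcript length in that library, against 0.05 and 0.08 in the H2O2 and CeO2 shControl libraries. The slope was -0.13 in the untreated shMLL1 library and between -0.03 and 0.07 in the other 8. For the 245 genes outside chromosome 5 it was -0.17 in untreated shControl and -0.05 in untreated shMLL1. For the 85 genes on chromosome 5, where TRIO and MYO10 lie, it was -0.18 in both of these libraries. The members span the range of lengths: MYL12A 0.899 kb, MYL12B 1.25 kb, TPM2 1.39 kb, TUBB6 2.06 kb, CNN2 2.19 kb, DAB2 4.53 kb, TLN1 8.82 kb, TRIO 11.1 kb and MYO10 11.5 kb. In shControl, TRIO, MYO10 and TLN1 were lower untreated than exposed, CNN2 was nearly level, and MYL12A, MYL12B, TPM2 and TUBB6 were higher. A smooth length trend was then removed in each library, for the coding genes of the stretches only. All other entries of the fit were left as they were. After this, no member passed the changed-response test in shUTX, where TRIO stood at -0.08, MYL12A at 0.03 and MYL12B at 0.16 (adjusted p = 0.751, 0.921 and 0.449). In shNRF2 all 4 calls were lost (adjusted p from 0.293 to 0.959) and MYO10 passed with the opposite sign to before, at 0.41 (adjusted p = 0.0329). Among the contrasts of derivatives, MYO10 lost its call in shMLL1 against shControl and TLN1 there passed at 0.28 (adjusted p = 0.0355). MYL12A passed in shUTX against shControl at 0.39 (adjusted p = 0.00277), and TRIO in shNRF2 against shControl at -0.47 (adjusted p = 0.00169). In shNRF2 against shMLL1 TRIO and MYO10 lost their calls, TRIO at 0.07 (adjusted p = 0.638), and TLN1 passed at -0.32 (adjusted p = 0.0201). In shUTX against shMLL1 MYL12B passed at 0.22 (adjusted p = 0.0471) and TPM2 was at -0.46 (adjusted p = 0.0590). In shNRF2 against shUTX CNN2, MYL12B and MYO10 passed at -0.24, -0.23 and -0.31 (adjusted p = 0.0185, 0.0294 and 0.0233). TRIO in shMLL1 (-0.54), TUBB6 in shUTX (-0.57) and TPM2 in shUTX (-0.99) kept their calls. Of the 330 genes on which the trend was fitted 85 lie on chromosome 5, and what its removal does to the difference on that chromosome in shMLL1 was not tested.

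**Figure D5:**
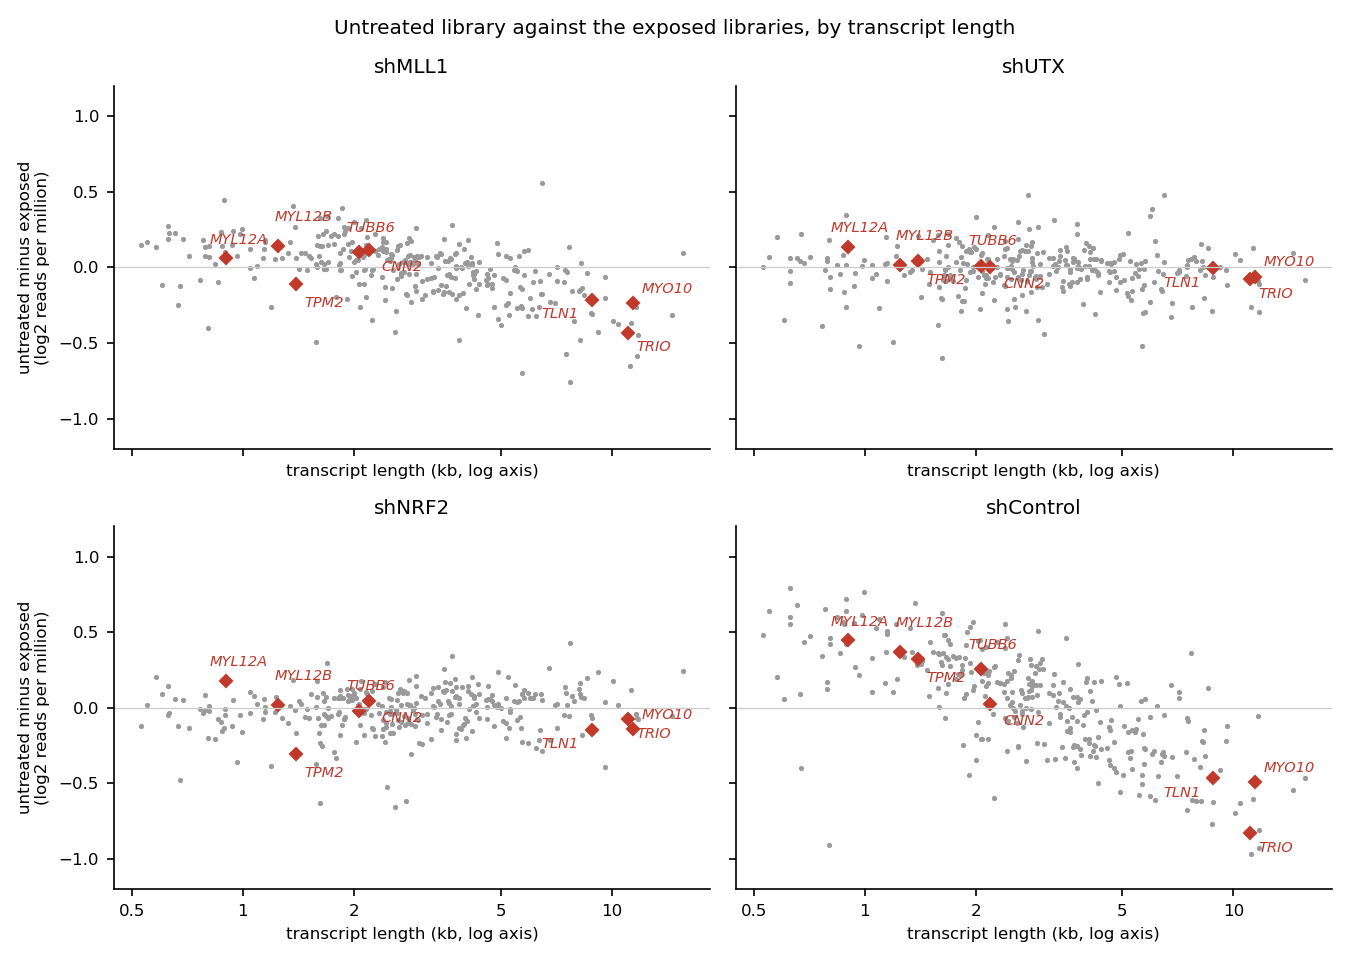
Log2 CPM of the untreated library minus the mean of the H2O2 and CeO2 libraries (y axis) against transcript length in kb (x axis, log scale), for 330 coding genes of the stretches in each derivative. Red diamonds are 8 of the 9 genes; DAB2 is too low to be among the 330. In shControl the points run downward with length, with MYL12A at the upper left and TRIO at the lower right. The -0.17 per doubling given in the text is the slope of the untreated library relative to the mean of the 12 libraries, not of these points.

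Without both the untreated shControl and the untreated shMLL1 library, a setting chosen after seeing the data, 2 genes fell in shMLL1 against shControl, TRIO by 0.96 and MYO10 by 0.63, while DAB2 was at -1.91 (adjusted p = 0.0509) and TPM2 at -0.40 (adjusted p = 0.0855). In shUTX 3 fell, TPM2, TUBB6 and TLN1 by 0.92, 0.54 and 0.43, and MYL12A rose by 0.36 (adjusted p = 0.00089). In shNRF2 TPM2 fell by 0.69, TRIO by 0.59 and TUBB6 by 0.26. In shUTX against shMLL1 8 genes passed, MYL12B in addition to those above, and in shNRF2 against shMLL1 TRIO and MYO10 passed. In shNRF2 against shUTX 8 passed.

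Other genes of the same machinery on the stretches were counted from 4 lists. Their counts stand beside the 25.7%, 38.3% and 9.52% of all entries of the stretches called either way in shMLL1, shUTX and shNRF2, and with so few genes nothing is read as particular to a list. Of 12 actin and actomyosin regulators tested, 2 fell and none rose in shMLL1 against shControl, 3 fell and 2 rose in shUTX, and 1 fell and 2 rose in shNRF2. ARHGAP28, 1 of the 2 that rose in shUTX, encodes a GTPase-activating protein. It had 10.9, 10.7 and 9.84 CPM in the H2O2, CeO2 and untreated shUTX libraries, against 0.681, 0.873 and 0.989 CPM in shControl. It reached 1 CPM in the 3 shUTX libraries and untreated shMLL1 alone, so it entered the test through the group where it is high, and its call is no support for a difference. In shUTX ARHGAP45 and ARHGEF39 fell by 0.78 and 0.73. FYB1, an adaptor best known from T cells and platelets, fell by 1.30 in shUTX and by 0.37 in shMLL1, and rose by 0.47 in shNRF2. RAI14, an actin-bundling ankyrin-repeat protein, fell by 0.59 in shMLL1 and by 0.47 in shNRF2. Of 9 microtubule and nuclear lamina genes, 5 fell in shMLL1, 3 fell and 3 rose in shUTX, and none passed in shNRF2. FSD1 fell in shMLL1 by 1.21 and in shUTX by 1.19, and MTCL1, a microtubule cross-linking protein, rose in shUTX by 1.14. TPPP, a tubulin polymerization-promoting protein, fell in shMLL1 by 0.85 and rose in shUTX by 0.63. TPPP, CEP72, CCT5, FYB1, RICTOR, RAI14 and CDH10 lie on the chromosome 5 stretch. Of 7 adhesion and junction genes tested, 1 fell in shMLL1, 3 fell in shUTX, and 1 fell and 2 rose in shNRF2. TJP3, a tight junction scaffold, fell in shUTX by 0.58 and rose in shNRF2 by 0.66, and PKP3, a desmosomal plakophilin, fell in shUTX by 0.32. CDH10, a cadherin, was lower in all 3 lines, at 0.154 to 0.562 CPM in shMLL1, 1.38 to 3.10 CPM in shUTX and 1.35 to 1.73 CPM in shNRF2, against 5.37 to 8.17 CPM in shControl. No shMLL1 library reached 1 CPM for CDH10, so it entered the test through the lines where it is higher. Its result in shMLL1 is therefore no support for a difference. None of the 3 clathrin and endocytosis genes CLTA, SH3GL1 and AP3D1 passed against shControl. No gene of these lists passed for H2O2 or CeO2 against untreated.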

How the data were processed

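RNA of 12 HaCaT libraries was prepared with a TruSeq kit, per the labels' protocols. The submitters' processing notes name GRCh38 and the tools HTSeq 0.11.1, HISAT2 2.2.1, Trimmomatic 0.39 and SAMtools 1.12. The settings, the annotation and the use of strand were not stated there or in the labels. The authors deposited raw read counts for 61498 Ensembl identifiers as an H2O2 table and a CeO2 table. Both hold the untreated libraries, with 1 differing cell, and the untreated counts of the H2O2 table were used. Symbols were found for 61399 identifiers, and positions and transcripts for 58298 in GENCODE 29. A gene's length is that of its transcript with the longest coding sequence.

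Matched stretches are the inner state of a hidden Markov model run along the panel genes of each chromosome. A panel gene reached 30 CPM with probability 0.95 inside and 0.25 outside, the states switched with probability 0.02, and a stretch needed 3 or more such genes whose median CPM was 150 or higher. Chromosome 18 was kept below that limit, and its stretch was extended back from its first panel gene to the first annotated gene of the chromosome.

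The tests used edgeR 4.0.16 (quasi-likelihood, two-sided, R 4.3.3) on raw counts after TMM scaling. An entry was tested if 3 or more libraries reached 1 CPM, and p-values were adjusted by Benjamini-Hochberg over all 10800. The fit had 6 residual degrees of freedom. Each standard error (SE) was worked back from the test, as the absolute log2 change divided by the square root of the F statistic. It was repeated with RLE or upper-quartile scaling, with all entries that had any count, with a limit of 5 CPM, with DESeq2 1.42.0 and with limma-voom (limma 3.58.1). Further repeats used only the libraries compared, left out the term for the other factor, took the untreated counts of the other table, or left out each library in turn. Another removed the length trend from the coding genes of the stretches and left all other entries unchanged. Leaving out both untreated libraries with low slopes was added after seeing the data. On simulated counts of 10548 entries, changes of 1 and 0.5 (log2) in shUTX against shControl were called in 68.4% and 26.8% of the changed entries. The simulation changed 98 and 97 entries by these amounts and held no treatment effect or length trend. In the data 26.3% of entries were called in this contrast, so these rates do not give the power of the test on the data. Intervals cover counting error only. All 9 genes are named, and list genes by the largest changes among those called. The members and lists were chosen with earlier results of these data known.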

Additional observations from a re-analysis of the deposited data

Results flagged for a closer look

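In 7 tests the response to exposure in a knockdown line differed from that in shControl. In shUTX these were TRIO (-0.60), MYL12A (0.48) and MYL12B (0.52). In shNRF2 they were TRIO (-0.59), MYL12B (0.52), TUBB6 (0.45) and TPM2 (0.81), all as log2 of exposed over untreated less the same in shControl. Each rests on the 1 untreated shControl library, in which long transcripts were low and short ones high (-0.17 log2 CPM per doubling of length). With the length trend removed all 7 calls were lost. Their remaining values were -0.08, 0.03 and 0.16 in shUTX in the order above, and -0.02, 0.13, 0.23 and 0.46 in shNRF2. Over 16 settings, TRIO lost its call in 2, MYL12A in 7 and MYL12B in 1 in shUTX. In shNRF2 TRIO lost it in 2, MYL12B in 1, TUBB6 in 7 and TPM2 in 10. The cause of these responses was not tested.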

How the results depend on the processing

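Leaving out 1 library at a time gave counts of called genes among the 9 of 2 to 5 in shMLL1, 3 to 4 in shUTX and 1 to 3 in shNRF2 against shControl. They were 5 to 7 in shUTX and 1 to 2 in shNRF2 against shMLL1, and 1 to 7 in shNRF2 against shUTX. They were 0 to 0 for H2O2 and CeO2, and 0 to 3, 1 to 5 and 2 to 6 for the changed response in shMLL1, shUTX and shNRF2, where only the 8 exposed libraries could be left out. With only the libraries compared, the count was 0 in shNRF2 against shControl and 8 against shUTX. Without the term for the other factor, which is the only block these libraries have, it was 1 in shNRF2 against shControl and 1 against shMLL1. Without the filter it was 1 for H2O2, 1 for CeO2 and 2 for the changed response in shNRF2, where DESeq2 also gave 2. With the length trend removed it was 1 in shNRF2 against shMLL1 (TLN1, not called before), 7 against shUTX, 0 for the changed response in shUTX and 1 in shNRF2, where MYO10 passed at 0.41 after standing at -0.18. Without both untreated libraries of shControl and shMLL1 it was 2 in shMLL1 against shControl and 8 in shNRF2 against shUTX. The causes of these shifts were not tested. Over all entries the number called was 576 in shNRF2 against shControl and 154 with only the libraries compared. No paired analysis was possible because the labels give no replicate numbers; derivatives are already compared within a treatment by the fit. Each combination had 1 library, so spread within a combination was not measured, and DAB2, at no more than 24 counts a library, is limited by depth.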
